A study of Homo sapiens with 32 samples.

Results

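The libraries labelled OVCAR8 METTL3 knockdown were compared with the OVCAR8 control libraries through the m6A peaks that the authors called in each. These were all 4 OVCAR8 peak lists, 2 per group, out of 12 peak lists in a series of 32 libraries. The mark N6-methyladenosine (m6A) was read by MeRIP-seq, which pulls down RNA fragments with an antibody against it, on RNA isolated with chromatin. OVCAR8 is an established human ovarian cancer cell line. The tested group carried a short hairpin RNA against METTL3 (shMETTL3, genotype labelled METTL3 knockdown), and its control carried a control hairpin (shControl, genotype labelled WT). SKOV3, a second ovarian cancer line, was labelled with the same 2 conditions and enters here only to show what the OVCAR8 peaks overlap. The labels name no hairpin sequence, dose or day of harvest, and they do not say whether replicates were grown separately, so the spread behind a p-value may be technical.

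METTL3 is the catalytic subunit of the nuclear complex that writes m6A. METTL14 holds the RNA beside it, and WTAP, VIRMA, ZC3H13, RBM15 and CBLL1 are regulatory partners that guide the complex. The mark is laid down on nascent transcripts, most often at adenosines in a GGAC-like context, and is read by proteins such as YTHDC1 in the nucleus. On chromatin-associated RNA it is carried by introns of unfinished transcripts, long non-coding RNAs and repeats such as LINE-1, and it is known to affect how long these RNAs stay at chromatin. A MeRIP peak needs both the mark and the transcript. RNA levels were not analysed here, so a lost or gained peak cannot be told apart from a difference in the transcript. In bulk material, fewer cells of a kind and less RNA per cell cannot be told apart either.

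The peaks put the label of the libraries called OVCAR8 shMETTL3 in question. These lists held 15484 and 15744 peaks on chromosomes 1 to 22 and X. The SKOV3 control lists overlapped 95.6% to 96.2% of those peaks by at least 1 bp on the same strand, the OVCAR8 control lists 69.0% to 69.5%, and the 2 lists overlapped each other's at 87.0% and 89.6%. SKOV3 control thus overlapped more of a list's peaks than its own replicate did, but its lists were longer, at 28918 and 29102 peaks. The SKOV3 control peaks themselves were overlapped at 45.2% to 47.1% by the libraries labelled OVCAR8 shMETTL3. OVCAR8 control overlapped 46.6% to 47.1% of them, and the libraries labelled SKOV3 shMETTL3 49.3% to 50.8%. Of the OVCAR8 control peaks, the libraries labelled SKOV3 shMETTL3 overlapped 74.4% to 76.9%, against 35.3% to 36.8% for the libraries labelled OVCAR8 shMETTL3. The groups below are those of the labels, and each value is a difference between libraries so labelled. Since both shMETTL3 replicates share the pattern, no value without the doubtful library can be had. With the libraries labelled SKOV3 shMETTL3 put in their place, 14.6% of OVCAR8 control regions were lost, a choice made after the data were seen.

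**Figure D1:**
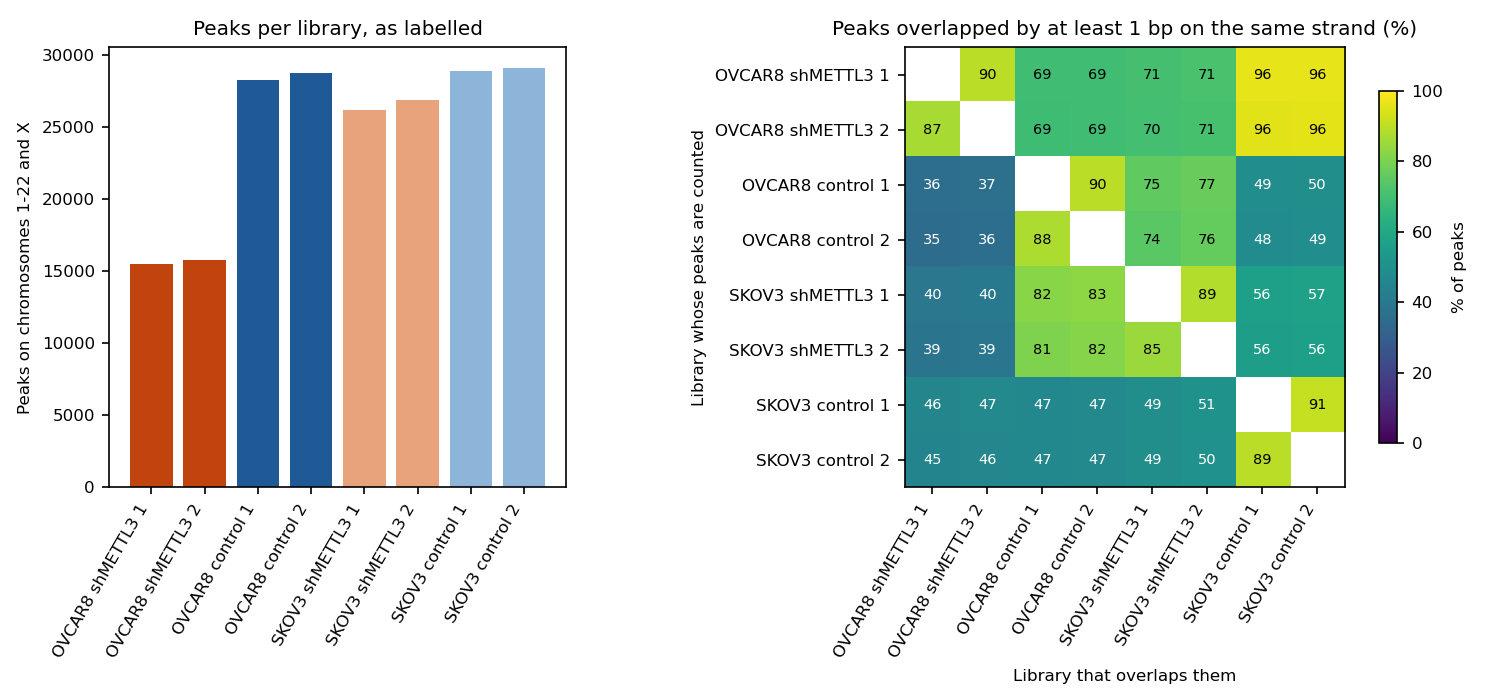
Left, the number of peaks on chromosomes 1 to 22 and X in each of the 8 ovarian libraries, as labelled (1 bar per library). Right, the percent of the peaks of each library (row) that another library (column) overlapped by 1 bp on the same strand, where the 2 libraries labelled OVCAR8 shMETTL3 are overlapped at 95.6% to 96.2% by SKOV3 control and at 69.0% to 69.5% by OVCAR8 control.

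The targeted gene does not settle the label. METTL3 (chromosome 14, 21498138 to 21511340 on GRCh38) had 1 and 1 peaks in the libraries labelled shMETTL3, against 0 and 1 in OVCAR8 control. The groups overlap, and a peak is no measure of the amount of METTL3 transcript. Markers of the ovarian (Müllerian) lineage had peaks mainly in the control. MECOM, a zinc-finger transcription factor often amplified in ovarian carcinoma, had 0 and 0 peaks in the shMETTL3-labelled libraries, against 14 and 14 in OVCAR8 control. PAX8, the lineage factor of the fallopian tube epithelium, had 0 and 0 against 6 and 6. MUC16, which encodes the CA-125 antigen, had 0 and 0 against 5 and 5. With equally long lists the mean difference was -8.5 peaks in MECOM, -2 in PAX8 and 0 in MUC16, and the last 2 then had too few peaks to be counted. In SKOV3 control, MECOM and MUC16 were also at 0 in both lists and PAX8 had 2 and 2. Peaks summed over the 20 genes of this list were 2 and 2 in the shMETTL3-labelled libraries, against 28 and 30 in OVCAR8 control and 7 and 9 in SKOV3 control. ERBB2, which is amplified in SKOV3 cells, had 1 peak in each of the 8 ovarian libraries. Its neighbour STARD3 had 0 and 1 peaks in the shMETTL3-labelled libraries, 0 and 0 in OVCAR8 control and 2 and 4 in SKOV3 control. Libraries labelled SKOV3 shMETTL3 had 0 and 0 there. Over the 16 genes of the amplicon the sums were 8 and 10 in the shMETTL3-labelled libraries, 14 and 11 in OVCAR8 control and 12 and 15 in SKOV3 control. Of 14 blood and endothelial markers, 3 had any peak, with sums of 3 and 2 in the shMETTL3-labelled libraries and 5 and 4 in control, and CD14 was at 0 in all 4 OVCAR8 libraries.

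Fewer peaks were called in the libraries labelled shMETTL3. They averaged 15614 ± 184 peaks, against 28505.5 ± 380 in control (SD, n = 2 each), a ratio of 0.548 and a log2 difference of -0.87. The groups do not overlap, yet 2 against 2 libraries cannot give a two-sided exact permutation p below 0.333, which is the value found. Read numbers solved from a sample of the called peaks of each list were similar. They are no measure of the sequencing depth of a library, for which no read totals were at hand. The lowest background among the sampled peaks was 11.6 and 12.3 reads in the shMETTL3-labelled libraries, against 11.8 and 12.4 in control. The median number of reads at a summit of the sampled peaks was 74 and 75, against 69 and 71 in control. Peaks were also alike in shape, with median widths of 299 and 305 bp against 297 and 297 bp in control, and with median fold enrichments over background, as the authors deposited them, of 4.84 and 4.70 against 4.99 and 4.90. Replicate lists overlapped each other more than the groups did, by 35.8 percentage points (88.4% within pairs and 52.7% between groups, two-sided exact permutation p = 0.333, the smallest that the 3 pairings allow).

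Peaks of 1 group were merged into regions where both of its libraries had a peak on the same strand, which gave 13463 regions for the shMETTL3-labelled libraries and 24666 for control. Of the control regions, 14257 were lost (57.8%), meaning that neither shMETTL3-labelled library had a peak within them, and 10409 were kept. Of the shMETTL3 regions, 3489 were gained (25.9%), meaning that no control peak touched them. For scale, 10.4% to 13.0% of the peaks of a shMETTL3-labelled list were missing from its own replicate, and 10.5% to 12.4% of those of a control list. Both strands lost regions, with 56.4% of forward-strand and 59.2% of reverse-strand control regions lost. With the strongest 15484 peaks of each list, so that all lists were equally long, 44.5% of control regions were lost and 39.7% of shMETTL3 regions were gained.

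Lost regions were mostly places where SKOV3 control had no peak either. Of the 14257 lost regions, 10930 (76.7%) had no peak in either SKOV3 control list, against 376 of the 10409 kept regions (3.61%). Gained regions were almost all SKOV3 control peaks: 3452 of 3489 (98.9%) overlapped one, and 37 did not. By contrast, 16.4% of the gained regions overlapped a peak of the libraries labelled SKOV3 shMETTL3, against 96.4% of the kept ones. Read from the control side, 96.7% of the 11306 control regions that no SKOV3 control list held were lost, 81.4% of the 1175 held by 1 list, and 19.5% of the 12185 held by both. The last share was 4.93% with equally long lists. Of the 2371 regions lost although both SKOV3 control lists held them, 2243 (94.6%) had a peak in a library labelled SKOV3 shMETTL3.

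Weaker regions were lost more often. Strength was the rank of −log10 p of a region's strongest peak within its list, averaged over both libraries of the group. The median strength percentile of lost regions was 44.2, against 71.2 for kept ones, and their median width was 300 bp against 492 bp. In the weakest 10% of control regions 79.4% were lost and in the strongest 10% 22.3%. Among regions held by both SKOV3 control lists the same classes lost 40.9% and 1.36%, where 25 of 1834 of the strongest regions were lost. Among regions that no SKOV3 control list held, 98.6% were lost among the weakest and 86.6% among the strongest. Gain was also lower in stronger regions, with 38.6% of the weakest and 11.1% of the strongest shMETTL3 regions gained.

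**Figure D2:**
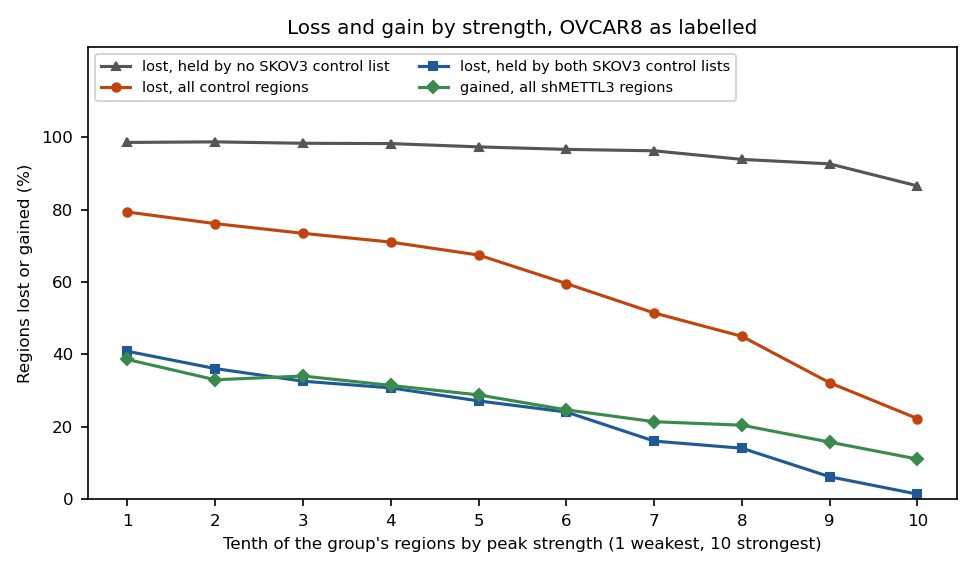
Percent of regions lost or gained (y axis) by peak strength within the group (x axis, steps of 10% of the regions, 1 weakest), for OVCAR8 as labelled, with 1 point per step. Loss of control regions held by both SKOV3 control lists drops to 1.36% in the strongest step, while loss of those that no SKOV3 control list held stays at 86.6% or more.

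Loss was uneven over the chromosomes. The percent of control regions lost had a median of 57.8% over 23 chromosomes, with 42.9% on chromosome 19 at the low end and 80.1% on chromosome X at the high end. Chromosome 18 followed with 75.1% and chromosome 9 with 68.0%. Chromosome X also carried 1.93% of the shMETTL3 regions, against 4.23% of the control regions. Gain was lowest on chromosome 16, at 12.9%, and highest on chromosomes 8 and 4, at 46.8% and 45.3%. Among regions held by both SKOV3 control lists, loss was 34.1% on chromosome X and 13.5% on chromosome 19. Chromosome number in the cells was not measured here.

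**Figure D3:**
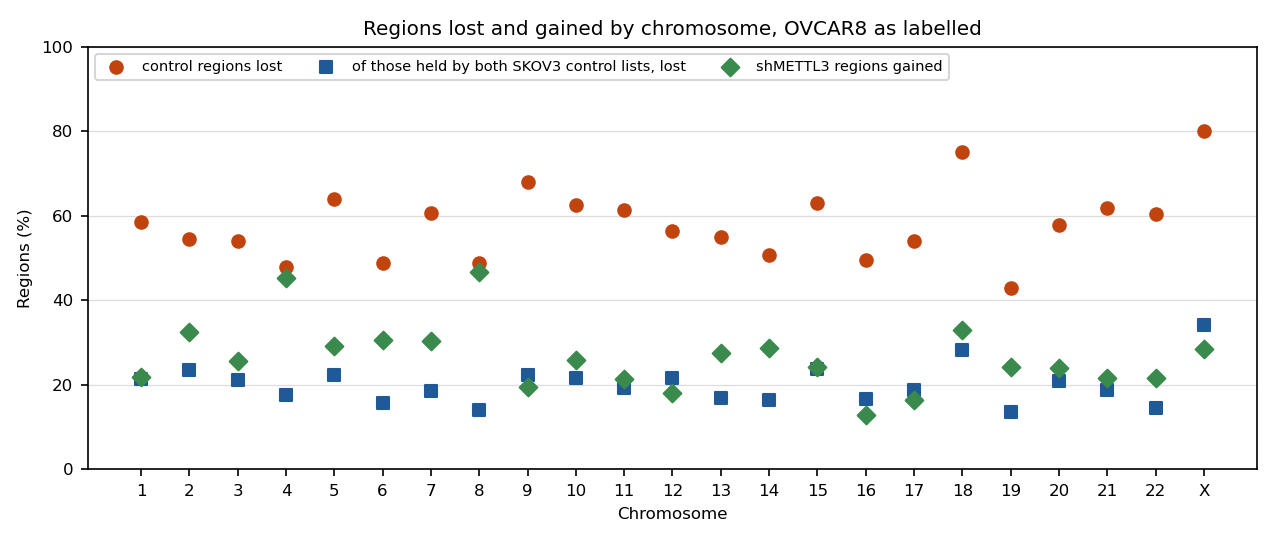
Percent of OVCAR8 control regions lost (circles), of those held by both SKOV3 control lists lost (squares), and of shMETTL3 regions gained (diamonds) on each chromosome, from peaks of the libraries as labelled. Chromosome X has the highest loss in both series, 80.1% and 34.1%, and chromosomes 8 and 4 the highest gain.

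Within genes, most regions lay on the transcribed strand. Where the region touched a single gene of known strand, 93.1% of lost regions were in the sense orientation, 88.7% of gained regions and 96.6% of kept ones. The last 10% of the gene body held 14.2% of lost and 13.7% of gained regions, against 18.9% of kept ones. The genes around lost and gained regions were long, with medians of 86.1 kb and 99.4 kb, against 54.0 kb for kept regions. Loss was higher in long non-coding RNA genes (72.4% of 1289 control regions) and between genes (72.8% of 1621) than in protein-coding genes (56.0% of 21313). The shares of peaks in the 4 gene classes moved little. Protein-coding genes held 86.1% of peaks in the shMETTL3-labelled libraries, against 86.4% in control, and long non-coding RNA genes 4.74% against 5.20%. The class of other genes, mainly pseudogenes and small RNAs, held 2.82% against 1.79%. Each class had a two-sided exact permutation p of 0.333, the smallest possible, and the same after adjustment over the 4 classes.

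Counted per gene, most genes had fewer peaks and a smaller number had more. Of 3521 genes with at least 3 peaks in some OVCAR8 library, 2231 (63.4%) had fewer peaks in both shMETTL3-labelled libraries than in both controls. Another 516 (14.7%) had more, and in 774 the groups overlapped. The median gene had 2 peaks fewer. With equally long lists the split was 852 genes with fewer and 922 with more. That cut makes all lists the same length and removes mainly control peaks, so a near balance was largely set in advance. Among 1111 genes with at least 5 control regions, 229 had lost every region, 79 had lost none and 803 had lost some. The 229 emptied genes held 2279 of the 14257 lost regions. Of these genes, 221 had 0 peaks in both shMETTL3-labelled libraries, 159 had 0 in both SKOV3 control lists, and all 229 had peaks in both libraries labelled SKOV3 shMETTL3. In the other direction, 417 genes had at least 5 shMETTL3 regions. Of these, 56 consisted only of gained regions, 429 in all, and 209 had none. All 56 had a peak in both SKOV3 control lists, and 53 had 0 peaks in both OVCAR8 controls. Genes with at least 3 lost and at least 3 gained regions were rare, at 9.

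**Figure D4:**
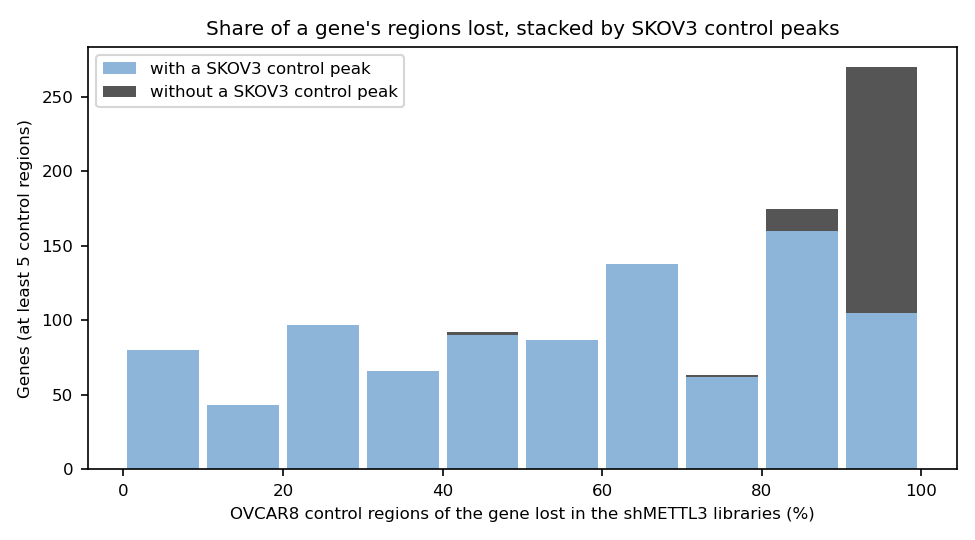
Number of genes (y axis) by the percent of their OVCAR8 control regions lost in the libraries labelled shMETTL3 (x axis, steps of 10), for genes with at least 5 control regions, stacked by whether SKOV3 control had a peak in the gene. The 183 genes without a SKOV3 control peak have a median of 100% lost, and the 928 with one spread over the whole range with a median of 60%.

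The genes with the most lost regions were large loci with many control peaks and next to none in the libraries labelled shMETTL3. MIR3667HG, a long non-coding microRNA host gene on chromosome 22 (49414524 to 49657519), had 0 and 0 peaks in the shMETTL3-labelled libraries, against 118 and 120 in control, and lost all of its 108 control regions. PDE10A, a phosphodiesterase that degrades cAMP and cGMP, had 0 and 0 against 76 and 75, and lost all 68 regions on chromosome 6 (165327289 to 165988052). In both genes the SKOV3 control lists had 0 peaks as well, while the libraries labelled SKOV3 shMETTL3 had 77 and 81 in MIR3667HG and 55 and 52 in PDE10A. The olfactory receptor locus OR51B5 had 0 and 0 peaks against 57 and 60 in control, in a gene body beside the beta-globin cluster of chromosome 11. GLIS3, a Krüppel-like zinc-finger factor, had 0 and 0 against 54 and 55. PDE4D, the long cAMP-specific phosphodiesterase gene, kept 1 of 50 regions, with 1 and 1 peaks against 56 and 54. These 5 genes have no overlap between the groups, and the lowest control value among them is 54 peaks.

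The other 7 genes had between 0 and 7 peaks left. SLCO3A1, an organic anion transporter, had 0 and 0 peaks in the shMETTL3-labelled libraries, against 51 and 49 in control. PLEKHA6 had 3 and 5 against 51 and 54, and CTIF, a factor of cap-dependent translation, had 2 and 2 against 51 and 48. ASS1, the urea-cycle enzyme argininosuccinate synthase, had 0 and 1 peaks against 40 and 38. COL5A1, which encodes a chain of fibrillar collagen V, had 0 and 0 against 38 and 37. BICC1, an RNA-binding protein, had 0 and 0 against 34 and 35, and CMIP had 7 and 7 against 42 and 39. In SKOV3 control, PLEKHA6 had 6 and 6 peaks and CMIP 6 and 5, while SLCO3A1, ASS1, COL5A1 and BICC1 had 0 in both lists. In each of these 12 genes the shMETTL3-labelled values stood near those of SKOV3 control and far below those of OVCAR8 control.

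The genes with the most gained regions showed the mirror image. PTPRN2, a receptor-type phosphatase of dense-core vesicles on chromosome 7 (157539056 to 158587823), had 59 and 58 peaks in the shMETTL3-labelled libraries, against 0 and 0 in control, and all of its 55 regions were gained. SKOV3 control had 88 and 87 peaks there. WDPCP, a planar cell polarity and cilium gene, had 39 and 38 against 2 and 2 in OVCAR8 control. RGS12, a regulator of G-protein signalling, had 21 and 18 against 0 and 0, and DIP2C had 18 and 18 against 0 and 0. CDH4, which encodes R-cadherin, had 20 and 23 against 2 and 2. WDPCP, RGS12, DIP2C and CDH4 had between 33 and 49 peaks in each SKOV3 control list.

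Further genes had peaks in place of few or none. FLNC, the muscle filamin that crosslinks actin, had 13 and 14 peaks in the shMETTL3-labelled libraries, against 0 and 0 in OVCAR8 control, and COL6A2, a chain of collagen VI, had 11 and 11 against 0 and 0. FHIT, the gene at the common fragile site of chromosome 3, had 12 and 12 against 0 and 0. MAEA, a subunit of a ubiquitin ligase, had 16 and 15 against 1 and 0. Where control already had peaks the gain was partial: ARHGAP39 had 24 and 23 against 11 and 10, the cytolinker gene DST 24 and 27 against 14 and 12, and the guanine exchange factor TRIO 18 and 18 against 4 and 7. Groups that do not overlap were a condition for choosing these 12 genes, as for the 12 before them.

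**Figure D5:**
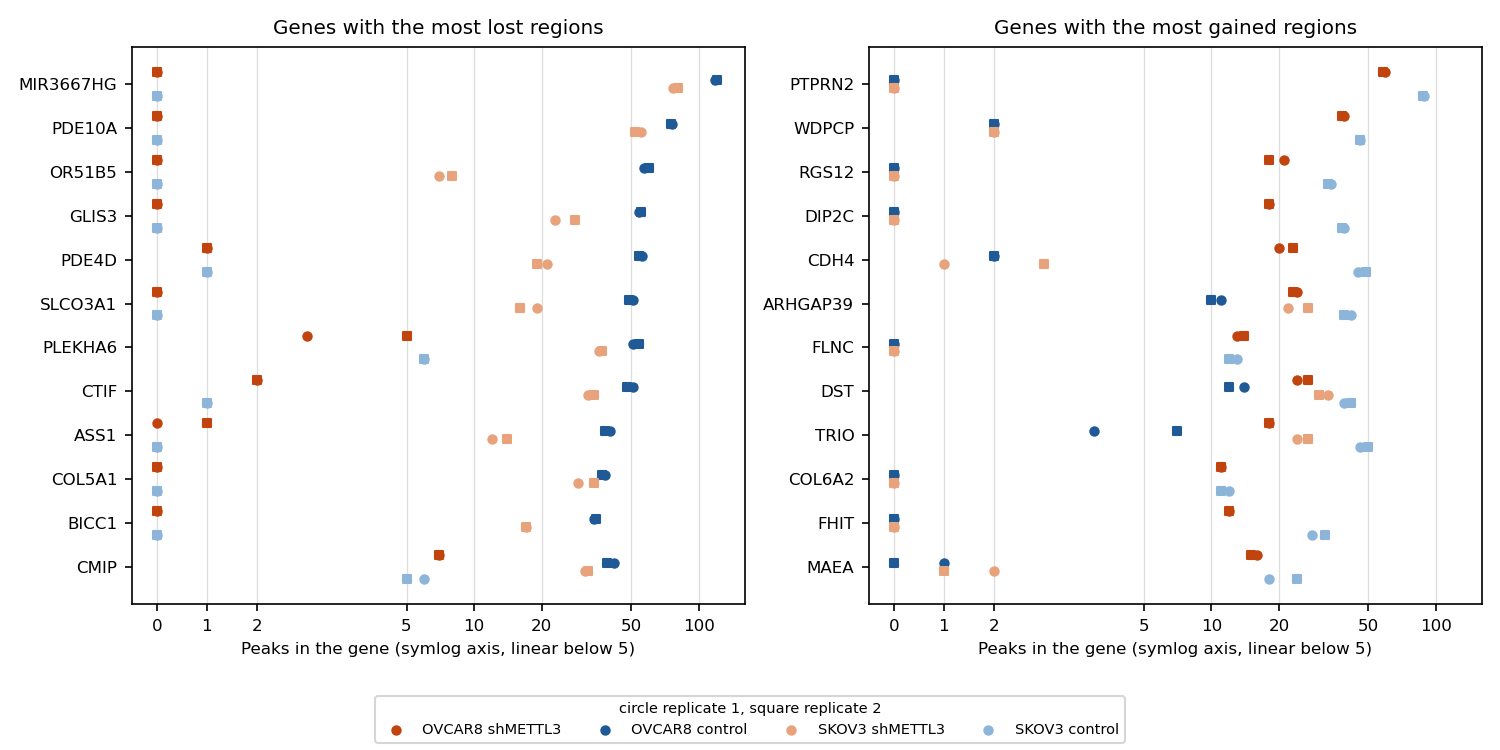
Peaks per gene (x axis, linear below 5 and logarithmic above) in each ovarian library as labelled, for the 12 genes with the most lost regions (left) and the 12 with the most gained regions (right). Circles and squares are replicates 1 and 2. MIR3667HG has 0 and 0 peaks in the libraries labelled OVCAR8 shMETTL3 against 118 and 120 in OVCAR8 control, PTPRN2 has 59 and 58 against 0 and 0, and in both genes SKOV3 control lies on the side of the libraries labelled OVCAR8 shMETTL3.

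Some genes lost regions that both SKOV3 control lists held, where the comparison rests less on peaks that only OVCAR8 control had. EXOC6B, a subunit of the exocyst that tethers secretory vesicles, had 9 and 9 peaks in the shMETTL3-labelled libraries, against 25 and 24 in OVCAR8 control and 24 and 22 in SKOV3 control. It lost 8 of its 18 regions held by SKOV3 control. GPHN, the scaffold gephyrin, had 9 and 8 against 29 and 30 in OVCAR8 control and lost 8 of 16 such regions. RPTOR, the raptor subunit of the growth kinase complex mTORC1, had 12 and 11 against 37 and 39, with 7 of 17 lost. ZEB1, a repressor of epithelial genes, had 3 and 3 against 16 and 15 in OVCAR8 control and 12 and 12 in SKOV3 control, and lost 7 of 10. In EXOC6B, GPHN, RPTOR and ZEB1 the shMETTL3-labelled libraries lay below both control groups. With equally long lists the mean difference from OVCAR8 control shrank to -4 peaks in GPHN, against -21 before, -5.5 in RPTOR, against -26.5, and -5.5 in ZEB1, against -12.5.

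The same order held in the 6 other genes ranked by this measure, which chooses genes that carry SKOV3 control peaks where OVCAR8 regions were lost. AMOTL1, an angiomotin of cell junctions, had 7 and 5 peaks in the shMETTL3-labelled libraries, against 19 and 19 in OVCAR8 control and 14 and 13 in SKOV3 control. PCNT, the centrosomal scaffold pericentrin, had 7 and 8 against 18 and 15. PRKCA, protein kinase C alpha, had 3 and 3 against 8 and 9 and lost 6 of its 8 regions held by SKOV3 control. ERICH1, ARHGAP23 and BICD1 lost 7 of 15, 5 of 15 and 5 of 8. With equally long lists the difference was -7.5 peaks in AMOTL1, -4 in PCNT, -3 in ERICH1, -3 in ARHGAP23 and -1 in BICD1. It was 0.5 peaks in EXOC6B and 1 peak in PRKCA, higher in the shMETTL3-labelled libraries, so both directions turn with list length.

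Genes at the other end kept every region and gained none. EEF2, the translation elongation factor, had 9 and 10 peaks in the shMETTL3-labelled libraries, against 9 and 9 in control. SPEN, a nuclear corepressor that binds RNA, had 9 and 9 against 7 and 7. PRR12 had 10 and 9 against 10 and 8, AKAP8L 6 and 7 against 6 and 6, and ARID1B, a subunit of SWI/SNF chromatin remodellers, 8 and 7 against 6 and 9. With equally long lists PRR12 stood 3 and ARID1B 4 peaks higher in the shMETTL3-labelled libraries, and their groups no longer overlapped. ANKRD36, with 6 and 6 against 8 and 8, was the only gene of these 6 with fewer peaks. Gained regions that no SKOV3 control list held were too few to cluster: EPB41L3, GAK, GAPDH, LENG8, MACROD1 and MAP3K12 had 1 each.

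Writer genes of the m6A machinery kept nearly all of their regions. Of 8 genes of the writer complex, 3 had enough peaks to be counted and none of them had fewer or more, against 63.4% with fewer and 14.7% with more over all genes. ZC3H13 had 5 and 6 peaks in the shMETTL3-labelled libraries, against 5 and 4 in control. RBM15 had 4 and 3 against 3 and 3, and VIRMA 3 and 2 against 3 and 3. RBM15B had 2 and 2 against 1 and 2, CBLL1 had 1 and 1 against 1 and 2, and METTL14 and WTAP had 0 in all 4 libraries. In the complex as a whole 1 of 12 control regions was lost. All of these regions were held by both SKOV3 control lists, and over all regions so held 19.5% were lost, or 4.93% with equally long lists. The 12 readers and erasers lost 7 of 23 regions (30.4%, against 57.8% over all), and 2 of the 4 counted had fewer peaks: HNRNPA2B1, a nuclear RNA-binding protein proposed to read m6A, with 1 and 1 against 5 and 5, and IGF2BP3, a cytoplasmic reader, with 3 and 3 against 6 and 6. The nuclear reader YTHDC1 had 3 and 3 against 3 and 3, and IGF2BP1 had 3 and 2 against 2 and 2.

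Lineage and adhesion genes differed in both directions. All 3 counted Müllerian genes had fewer peaks, against 63.4% with fewer and 14.7% with more over all genes. The whole list lost 23 of 24 regions, against 57.8% over all. Of 5 counted epithelial genes 3 had fewer, near the share over all genes, and 1 had more. KRT7, a keratin of simple epithelia, had 7 and 6 peaks in the shMETTL3-labelled libraries, against 11 and 11 in control, and the epithelial factor ELF3 had 0 and 0 against 3 and 4. KRT18 had 4 and 4 against 2 and 2, and the groups of KRT8 overlapped, with 5 and 5 against 7 and 5. Of 6 counted mesenchymal genes 4 had fewer, near the share over all genes, and 2 had more. THBS1, which encodes the matrix protein thrombospondin, had 1 and 2 against 4 and 4, and TWIST2 had 2 and 2 against 5 and 3, although TWIST2 turned to 1 peak more with equally long lists. The receptor kinase AXL had 9 and 9 peaks against 0 and 0 in OVCAR8 control and 22 and 22 in SKOV3 control.

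Collagens and cadherins also had members in both directions. Of 11 counted collagens 7 had fewer peaks and 4 had more, close to the 63.4% with fewer over all genes, and 99 of 105 control regions were lost (94.3%, against 57.8% over all). COL7A1, the anchoring-fibril collagen, had 0 and 0 peaks in the shMETTL3-labelled libraries, against 29 and 32 in control. COL4A5, a basement-membrane chain, had 0 and 0 against 12 and 16, and COL12A1 had 2 and 2 against 11 and 10. Of 12 counted cadherin superfamily genes 4 had fewer and 5 had more. CDH13, a cadherin held by a lipid anchor, had 6 and 4 against 11 and 8, and turned to 2.5 peaks more with equally long lists. FAT1 had 12 and 14 against 12 and 12, and CELSR3 had 7 and 6 against 6 and 6. The share of cadherin genes with fewer peaks was below that of all genes and the share with more above it, with no test of either.

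Among signalling families, 8 of 10 counted phosphodiesterases had fewer peaks and 1 had more, against 63.4% and 14.7% over all genes. They lost 176 of 187 regions (94.1%, against 57.8% over all), 68 of them in PDE10A and 49 in PDE4D, which are described above as most lost. PDE3A had 0 and 0 peaks in the shMETTL3-labelled libraries, against 25 and 25 in control, and PDE8B 0 and 0 against 17 and 17. Of 12 counted receptor tyrosine kinases 9 had fewer and 3 had more, and 77 of 93 regions (82.8%) were lost. IGF1R, the receptor of insulin-like growth factor, had 1 and 2 against 30 and 32, MET, the receptor of hepatocyte growth factor, 2 and 2 against 13 and 12, and EGFR 6 and 7 against 13 and 14. EPHA2, an ephrin receptor, had 5 and 4 against 11 and 10. With equally long lists the difference was -0.5 in EGFR and -1.5 in EPHA2, and their groups overlapped or touched. In SKOV3 control these 4 receptors had 2 and 2, 1 and 1, 6 and 7, and 8 and 7 peaks, in the same order.

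Potassium channels and receptor phosphatases had members in both directions. Of 9 counted potassium channel genes 8 had fewer peaks and 1 had more, against 63.4% and 14.7% over all genes. In that list 42 of 47 control regions were lost, against 57.8% over all. KCNAB2, a channel beta subunit, had 2 and 3 peaks in the shMETTL3-labelled libraries, against 9 and 11 in control, KCNK1 had 0 and 0 against 9 and 10, and the calcium-activated channel KCNN4 had 0 and 0 against 8 and 8. KCNQ5 was the exception, with 8 and 8 against 0 and 0 in OVCAR8 control and 60 and 60 in SKOV3 control. Of 7 counted receptor tyrosine phosphatases 4 had fewer, near the share over all genes, and 3 had more. They lost 22 of 44 control regions, near the share over all regions. PTPRM had 13 and 13 against 12 and 12. PTPRF had 9 and 10 against 15 and 14, and PTPRS 5 and 6 against 11 and 11, but with equally long lists these stood 2 and 1.5 peaks higher in the shMETTL3-labelled libraries.

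Genes of DNA repair, which the title of the series names, are given as 2 lists. Over all genes 63.4% had fewer peaks and 14.7% had more. Of 12 counted genes of homologous recombination and the Fanconi anaemia pathway, 4 had fewer peaks and 2 had more. In this list 13 of 44 control regions were lost (29.5%, against 57.8% over all). Both SKOV3 control lists held most of its regions, and over all regions so held 19.5% were lost. XRCC3, a recombination factor, had 4 and 4 peaks in the shMETTL3-labelled libraries, against 7 and 9 in control, and XRCC2 had 3 and 3 against 5 and 4. Both differences were 0 with equally long lists. BRCA2, a central factor of break repair by recombination, had 5 and 4 against 6 and 5, and the nuclease scaffold SLX4 had 5 and 5 against 6 and 4. Of 11 counted genes of break signalling and end joining 6 had fewer and none had more, near the share over all genes, and 23 of 47 regions were lost (48.9%). The checkpoint kinase ATR had 3 and 3 against 11 and 11, while ATM had 4 and 5 against 4 and 4. RNF168, a ubiquitin ligase at breaks, had 3 and 3 against 5 and 5, and RIF1 had 4 and 4 against 4 and 4.

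Chromatin genes were counted in 3 lists. Of 8 counted genes of the HUSH complex and its LINE-1 silencing partners 3 had fewer peaks and none had more. In this list 5 of 35 control regions were lost (14.3%, against 57.8% over all). Both SKOV3 control lists held most of its regions, and over all regions so held 19.5% were lost. TASOR, the HUSH scaffold, had 5 and 6 peaks in the shMETTL3-labelled libraries, against 6 and 5 in control. TASOR2 had 7 and 6 against 5 and 6, ZNF638 6 and 6 against 6 and 6, and SAFB 4 and 3 against 4 and 5. Of 17 counted histone lysine methyltransferases 9 had fewer and 2 had more, against 63.4% and 14.7% over all genes, and 69 of 160 regions were lost (43.1%). EHMT1, which methylates histone H3 at lysine 9, had 9 and 9 against 31 and 32. KMT2D had 13 and 11 against 15 and 21, and SETD1B 11 and 10 against 14 and 17, but with equally long lists the differences of these 2 were 0 and -1 and their groups overlapped or touched. SMYD3 had 21 and 18 against 11 and 14. Of 9 counted SWI/SNF genes 5 had fewer and 1 had more, and 27 of 61 regions were lost (44.3%), with BRD9, a bromodomain subunit, at 1 and 1 against 10 and 11. SMARCA4, the ATPase of the complex, had 10 and 8 against 10 and 11, and BICRA had 5 and 5 against 7 and 7 but stood 2.5 peaks higher with equally long lists.

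Smaller lists were counted in the same way, beside 63.4% of genes with fewer and 14.7% with more over all genes. Of 3 counted genes of the nuclear exosome and its adaptors 2 had fewer peaks: ZFC3H1, which targets polyadenylated RNA to the exosome, with 4 and 4 in the shMETTL3-labelled libraries against 6 and 5 in control, and EXOSC2 with 2 and 2 against 5 and 4. Of 8 counted immediate-early and MYC family genes 4 had fewer and 2 had more. MYC had 5 and 4 against 4 and 5, FOSL1, an AP-1 subunit, had 5 and 7 against 2 and 2, and FOSL2 had 3 and 2 against 4 and 4. Of 11 counted giant genes at fragile sites 4 had fewer and 6 had more. IMMP2L had 3 and 3 against 29 and 27, DMD, which encodes dystrophin, 0 and 0 against 20 and 25, and PARD3B 0 and 0 against 13 and 12. Of the 2 counted genes of the ERBB2 amplicon, CDK12 had fewer, with 4 and 5 against 8 and 6, and MED1 had more, with 3 and 3 against 2 and 2.

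Some long non-coding RNAs lost most of their peaks. The 4 counted genes of the list of abundant nuclear long non-coding RNAs all had fewer peaks, against 63.4% over all genes. The list lost 35 of 55 control regions (63.6%, against 57.8% over all). PVT1, the neighbour of MYC, had 8 and 8 in the shMETTL3-labelled libraries, against 32 and 27 in OVCAR8 control and 16 and 16 in SKOV3 control. LINC-PINT had 3 and 4 against 15 and 17 in OVCAR8 control and 32 and 33 in SKOV3 control, and so lay far below both. TUG1 had 6 and 6 against 7 and 7. NEAT1, the scaffold of paraspeckles, had 2 and 2 against 3 and 4 and lost its call with equally long lists. Beyond that list, LOC105378314 had 0 and 0 against 26 and 28, LINC02899 had 0 and 0 against 22 and 18, and CYKILR had 18 and 17 against 29 and 34. The most gained regions lay in LINC01592, with 11 and 9 peaks against 0 and 0, and in LINC00342, with 9 and 12 against 2 and 2. CCDST and LINC00534 each had 6 and 6 against 0 and 0, LOC105371308 had 8 and 7 against 0 and 0, and LOC100130691 had 8 and 9 against 2 and 2.

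Host genes of microRNAs are shown with their products, because a pair of hosts with shared seeds both lost every control region. Of 11 counted hosts 6 had fewer peaks and 3 had more, against 63.4% and 14.7% over all genes. In the list 156 of 169 control regions were lost, against 57.8% over all, with 108 of the 156 in MIR3667HG. MIR100HG (chromosome 11, 122028329 to 122422871) had 1 and 1 peaks in the shMETTL3-labelled libraries, against 29 and 32 in OVCAR8 control and 1 and 1 in SKOV3 control. MIR99AHG on chromosome 21 had 0 and 0 against 3 and 4. MIR924HG had 1 and 0 against 13 and 11, and MIR3936HG 0 and 0 against 5 and 7. MIR4435-2HG had 6 and 7 against 5 and 5 in OVCAR8 control and 27 and 32 in SKOV3 control, and MIR22HG had 3 and 3 against 0 and 0. MIR99AHG and MIR22HG were picked after their values were seen. The mature 5p microRNAs of MIR100HG and MIR99AHG are printed 5′ to 3′ from RefSeq (GRCh38.p14), with the seed, bases 2 to 8, in capitals. Each 5p microRNA of one host has a partner with the same seed in the other, in 3 seed groups.
hsa-miR-100-5p of MIR100HG, chr11:122152275-122152296, minus strand: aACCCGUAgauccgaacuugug
hsa-miR-99a-5p of MIR99AHG, chr21:16539101-16539122, plus strand: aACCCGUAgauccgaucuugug
hsa-let-7a-5p of MIR100HG, chr11:122146568-122146589, minus strand: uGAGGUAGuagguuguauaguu
hsa-let-7c-5p of MIR99AHG, chr21:16539838-16539859, plus strand: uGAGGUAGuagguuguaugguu
hsa-miR-125b-5p of both hosts, chr11:122099809-122099830, minus strand, and chr21:16590253-16590274, plus strand: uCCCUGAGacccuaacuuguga
MIR22HG, a host with peaks in the shMETTL3-labelled libraries and none in OVCAR8 control, carries another seed.
hsa-miR-22-3p of MIR22HG, chr17:1713914-1713935, minus strand: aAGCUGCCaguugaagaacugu
None of these hairpins lay in a lost, kept or gained region itself, so the peaks mark the host transcripts and not the microRNAs. Of 1558 microRNA hairpins of the RefSeq table, 15 lay in a lost region, 27 in a kept one and 0 in a gained one, and 12 of the 15 were in regions with no SKOV3 control peak. Over all regions, 57.8% of control regions were lost and 25.9% of shMETTL3 regions gained. Of all lost regions, 76.7% had no SKOV3 control peak, so 12 of 15 is near that share.

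Gene starts are the only stretches of the regions for which sequence was at hand. Of 34961 starts, 369 lay in a lost region, 143 in a gained one and 664 in a kept one. The letters GGAC, the core in which m6A is most often found, were searched on the transcribed strand in the first 50 bases of each gene. They occurred in 23.6% of starts in lost regions, 17.5% in gained and 20.8% in kept regions, against 18.9% of all starts. These shares are a description, and a match is not a site. Among long non-coding RNA genes whose start lay in a lost or gained region, the starts of those with the most such regions are shown from RefSeq (GRCh38.p14), first 50 bases, transcribed strand, with GGAC in capitals where it occurs.
MIR924HG, lost, chr18:39751946-39751995, minus strand: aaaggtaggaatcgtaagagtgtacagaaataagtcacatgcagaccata
MCM3AP-AS1, lost, chr21:46229231-46229280, plus strand: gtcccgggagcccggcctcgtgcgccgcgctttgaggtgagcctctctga
LOC124905228, lost, chrX:154398793-154398842, minus strand: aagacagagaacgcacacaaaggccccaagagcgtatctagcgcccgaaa
LOC124900404, gained, chr1:98054379-98054428, plus strand: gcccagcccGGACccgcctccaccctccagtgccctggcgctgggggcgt
MIR22HG, gained, chr17:1716161-1716210, minus strand: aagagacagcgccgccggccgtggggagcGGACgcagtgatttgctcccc
PTCSC3, gained, chr14:36176673-36176722, minus strand: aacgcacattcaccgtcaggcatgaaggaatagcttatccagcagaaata
Of these 6 starts, those of LOC124900404 and MIR22HG hold the core.

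The comparison of the SKOV3 libraries as labelled ran against that of OVCAR8 in most genes with a call in both. Of the 2231 genes with fewer peaks in the libraries labelled OVCAR8 shMETTL3 than in OVCAR8 control, 1449 had more peaks in both libraries labelled SKOV3 shMETTL3 than in both SKOV3 controls, and 144 had fewer. Of the 516 with more peaks in OVCAR8, 443 had fewer in SKOV3 and 12 had more. For MIR3667HG the mean difference was -119 peaks in OVCAR8 and 79 in SKOV3, and for PTPRN2 it was 58.5 and -87.5. These differences share no libraries, and their contrast was not tested.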

How the data were processed

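MeRIP peak lists of chromatin-associated RNA were read for OVCAR8 and SKOV3, 1 list per library. The submitters' processing notes name build hg38, the caller MACS2 2.2.7.1, the aligners HISAT2 2.1.0 and Bowtie2 2.4.2, and Trim Galore 0.6.6, without saying which step used which. Each list gives the authors' fold enrichment, a linear ratio over background, and p and q as −log10 values deposited by the authors, with no −log10 q under 2.00. Peaks were called per library and strand, per the peak names in the files. A list holds no read totals. Reads at summits and the background were solved from fold and −log10 p, assuming the caller's Poisson tail. This used 1503 to 1590 peaks per list, taken at even steps of rank among peaks with −log10 p under 100. The reads came out whole in 100% of these sampled peaks within 0.001 in −log10 p.

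Regions, loss and gain were computed as the report says, with Python 3.11.15, numpy 2.4.6, pandas 2.3.3 and scipy 1.17.1, and the steps were tested on simulated data. A peak counted for a gene if it touched only that gene's body in RefSeq (GRCh38.p14), which left out 13.4% to 14.7% of peaks in several genes. The members, the 23 gene lists and the rule for named genes were chosen with earlier results of these data known. The rule took the 12 genes with most lost and most gained regions, 10 with most lost regions held by both SKOV3 control lists, 6 with most kept and none lost or gained, 6 with most gained regions outside SKOV3 control, up to 4 members per list with the most peaks, 6 long non-coding RNA genes in each direction, and microRNA hosts with at least 5 peaks. Other list members are given as counts. One gene that the rule takes is not reported here. Alternatives changed the overlap, the region rule, the q cutoff, list length, strand, gene filter and gene assignment, left out each library, and paired libraries by replicate number. Input libraries, spike-ins and the LOVO and RKO lists were not used here.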

Additional observations from a re-analysis of the deposited data

Results flagged for a closer look

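In 43 of the 57 genes named from their numbers of lost, kept or gained regions, both libraries labelled OVCAR8 shMETTL3 moved one way against both OVCAR8 controls while both libraries labelled SKOV3 shMETTL3 moved the opposite way against both SKOV3 controls. The difference between the lines was not tested. Of all 3521 genes counted, 1449 had fewer peaks in OVCAR8 and more in SKOV3, and 443 had more in OVCAR8 and fewer in SKOV3. Most of the 57 were chosen for many lost or gained regions, which favours genes with large differences in OVCAR8. The values below are mean peaks in the libraries labelled OVCAR8 shMETTL3 minus OVCAR8 control.

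The difference below 0 was largest in size in genes that lost all or most of their control regions: -119 in MIR3667HG, -75.5 in PDE10A, -58.5 in OR51B5, -54.5 in GLIS3, -54 in PDE4D, -50 in SLCO3A1, -48.5 in PLEKHA6 and -47.5 in CTIF. It was -38.5 in ASS1, -37.5 in COL5A1, -34.5 in BICC1, -33.5 in CMIP, -29.5 in MIR100HG, -27 in LOC105378314, -26.5 in RPTOR and -21.5 in PVT1. Smaller ones were -20 in LINC02899, -14 in CYKILR, -13 in AMOTL1, -12.5 in ZEB1, -9 in PCNT and -2.5 in MACROD1.

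Above 0, the difference was 58.5 in PTPRN2, 36.5 in WDPCP, 19.5 in RGS12, 19.5 in CDH4, 18 in DIP2C, 15 in MAEA, 13.5 in FLNC and 13 in ARHGAP39. It was also 12.5 in DST, 12.5 in TRIO, 12 in FHIT, 11 in COL6A2, 10 in LINC01592, 7.5 in LOC105371308, 6.5 in LOC100130691 and 6 in CCDST. The smallest were 6 in LINC00534, 2.5 in EPB41L3, 2.5 in GAK, 2 in SPEN and 1 in GAPDH.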

How the results depend on the processing

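The main limits are the label of the shMETTL3 libraries, 2 libraries per group with no p below 0.333, list length, and peak calls in place of read counts, so that a region near the caller's cutoff can count as lost. Peak number and peak sharing kept their direction under each alternative run. The percent of control regions lost, 57.8%, was 64.7% when 50% of a region had to be overlapped, 63.7% with regions of any list, 63.5% when absence from 1 list sufficed, 58.0% at −log10 q of at least 5, 44.5% with equally long lists and 57.5% with strand ignored. The percent gained, 25.9%, was 28.9%, 30.3%, 30.1%, 26.1%, 39.7% and 25.5% under these settings in the same order. The percent lost among regions held by both SKOV3 control lists, 19.5%, was 25.2%, 22.6% and 28.4% under the first 3 and 4.93% with equally long lists. The percent of lost regions without a SKOV3 control peak, 76.7%, was 75.9%, 77.7%, 71.0% and 91.1% there. The percent of gained regions with such a peak, 98.9%, was 98.4% with the 50% overlap, 96.2% with regions of any list and 85.0% with equally long lists. Each is set against the SD of 2 same-numbered pairs, which is small.

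Pairing the libraries by replicate number (the replicate block) gave 63.9% lost, 30.7% gained, 25.9% lost among regions held by both SKOV3 control lists, 74.4% of lost regions without and 97.2% of gained regions with a SKOV3 control peak. It changed no count of genes by over 1.5 times, and peak number then had a two-sided exact permutation p of 0.5, the smallest possible. The labels do not say what a shared number means.

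With each library left out in turn, the 5 percentages were 60.3% to 61.4%, 27.9% to 28.5%, 21.2% to 24.6%, 73.3% to 77.3% and 97.2% to 98.9%. The log2 difference in peak number was -0.88 to -0.85. Genes with fewer peaks numbered 2185 to 2350 and genes with more 551 to 586. Class shares moved by -0.33 to -0.26 percentage points for protein-coding, -0.52 to -0.40 for long non-coding, 1.02 to 1.05 for other genes and -0.36 to -0.19 between genes.

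Genes with fewer and with more peaks, 2231 and 516, were 852 and 922 with equally long lists, and 3914 and 1209 when genes with at least 1 peak counted. The share of peaks between genes reversed with equally long lists, at 0.22 percentage points. So did the differences in peaks for EXOC6B (0.5), PRKCA (1), TWIST2 (1), CDH13 (2.5), PTPRF (2), PTPRS (1.5) and BICRA (2.5). Another 14 named genes lost their call there with no change of sign, or with a difference of 0: MACROD1, PAX8, MUC16, KRT7, ELF3, XRCC3, XRCC2, FOSL2, NEAT1, KCNAB2, EGFR, EPHA2, KMT2D and SETD1B. A further 18 named genes gained a call with equally long lists, among them PRR12 (3), ARID1B (4) and LENG8 (6.5). Equally long lists keep the strongest 15484 peaks of each library, which leaves out mainly control peaks. With the libraries labelled SKOV3 shMETTL3 in place of those labelled OVCAR8 shMETTL3, chosen after seeing the data, 14.6% of regions were lost, 8.81% gained and 2.65% lost among those held by both SKOV3 control lists, 762 genes had fewer peaks and 538 more, and the log2 difference in peak number was -0.10.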
